A study of Mus musculus with 34 samples.

Results

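The 7 globin genes described here were 7 of the 52636 genes of a deposited RNA sequencing table of differentiating mouse embryonic stem cells (ESCs). They were 4 adult genes (the beta-type Hbb-bs and Hbb-bt and the alpha-type Hba-a1 and Hba-a2) and 3 embryonic genes (the beta-type Hbb-bh1 and Hbb-y and the alpha-type Hba-x). They were found by symbol and chosen with their levels in mutant cells of days 4 to 6 and wild-type cells of day 6 in view, so comparisons of the genotypes on days 4 to 6 are given as a description without a test. Adult beta globin stood above 10 scaled RPKM in 5 of 30 libraries, all of mutant cells, whereas the highest embryonic beta globin level was in 1 wild-type library of day 6. The globins of those 5 mutant libraries were mostly adult and those of that wild-type library mostly embryonic.

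Haemoglobin is a tetramer of alpha-type and beta-type chains, each holding a haem group that carries oxygen. In the mouse embryo, the first (primitive) red cells arise in the yolk sac and make the embryonic chains from Hba-x (zeta), Hbb-bh1 (beta-h1) and Hbb-y (epsilon-y) together with the adult alpha chain. Definitive red cells, made later in the foetal liver and then in the bone marrow, use the adult alpha and adult beta genes. Primitive red cells switch from beta-h1 towards epsilon-y as they mature.

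The cells were F1(G4) mouse ESCs, strain 129S2/C57Bl6J. One genotype was mutant for Hdn (Handsdown), a long non-coding RNA gene next to the heart transcription factor gene Hand2, and the other was wild type. Both were sampled before differentiation (ESC) and 3, 4, 5 and 6 days into it, with 3 libraries in each of the 10 groups. The ESCs were kept in 2i medium. For differentiation they were aggregated in hanging drops, then grown on fibronectin without serum and with 20 ng/mL BMP4, a growth factor that drives mesoderm formation. Sample titles read Hdn null for the mutant, but the sequence change, the number of clones and whether replicates were separate cultures are not given in the labels, so p-values measure only the spread between these samples, which may be technical. The design text names Brachyury mutants and the growth protocol names dissected hearts of E9.5 embryos, while titles, treatment and characteristics describe ESC differentiation, which was followed here. Hdn itself (listed as 5033428I22Rik) had 0, 0.0121 and 0.00488 scaled RPKM in the mutant libraries of day 6, against 0.0838, 0.0597 and 0.342 in the wild-type ones, and was at 0 in all ESC libraries of both genotypes. The series lists 34 samples, of which 3 chromosome conformation libraries and 1 heart RNA library were not analysed here.

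Levels are given as scaled RPKM, the deposited RPKM (reads per gene, relative to gene length and library size) divided by a factor per library between 0.888 and 1.106. The libraries held 43.3 to 68.4 M reads (median 57.2 M), and the reads behind each globin value were recovered as whole numbers. A listed 0 allows up to 3 reads, and every interval below covers counting error only. The summed level of 6 ESC markers was 1380 to 1847 scaled RPKM in mutant ESCs and 1633 to 2033 in wild-type ESCs, against 46.9 to 64.8 in mutant and 106 to 165 in wild-type libraries of day 6. Pou5f1, a pluripotency factor among them, had 7.2 to 8.89 scaled RPKM in mutant and 11 to 21.5 in wild-type libraries of day 6. Hand1, a mesoderm factor, had 574 to 640 in mutant and 205 to 344 in wild-type libraries of that day. In bulk RNA, fewer cells of a type and less RNA per cell cannot be told apart.

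Libraries that stood apart in these genes are named first. In the mutant group they were replicate 3 of day 4, replicate 3 of day 5 and all 3 replicates of day 6, which carried adult beta globin together with heart muscle transcripts. In the wild-type group, replicate 3 of day 6 carried embryonic globin and replicate 1 of day 3 a trace of adult globin alone. Group values below are given with and without them where they decide the value.

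In the RefSeq table of GRCm38.p6 (also called mm10), the beta-type genes lay on chromosome 7, with Hbb-bt at chr7:103812524-103813923, Hbb-bs at chr7:103826523-103827928, Hbb-bh1 at chr7:103841638-103843162 and Hbb-y at chr7:103851754-103853207. The alpha-type genes lay on chromosome 11, with Hba-x at chr11:32276600-32278116, Hba-a1 at chr11:32283672-32284486 and Hba-a2 at chr11:32296492-32297310. All 7 are annotated as protein-coding.

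The RefSeq promoter table held 6 of the 7 members, all except Hbb-bh1. The 150 bases that end just before the start are shown for the adult beta pair, which appeared in the mutant libraries, for the embryonic Hbb-y and Hba-x, and for Hba-a1 as the adult alpha gene. They are chr7:103827929-103828078 (minus strand) for Hbb-bs, chr7:103813924-103814073 (minus) for Hbb-bt, chr7:103853208-103853357 (minus) for Hbb-y, chr11:32276450-32276599 (plus) for Hba-x and chr11:32283522-32283671 (plus) for Hba-a1. Capitals mark matches, on either strand, to the short motifs described after them.
Hbb-bs: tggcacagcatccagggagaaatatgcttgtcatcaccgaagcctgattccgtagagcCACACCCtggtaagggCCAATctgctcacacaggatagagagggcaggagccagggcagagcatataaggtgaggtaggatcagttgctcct
Hbb-bt: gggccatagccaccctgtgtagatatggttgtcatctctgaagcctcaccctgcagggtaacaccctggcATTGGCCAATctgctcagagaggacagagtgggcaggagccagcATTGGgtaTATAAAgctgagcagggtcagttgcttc
Hbb-y: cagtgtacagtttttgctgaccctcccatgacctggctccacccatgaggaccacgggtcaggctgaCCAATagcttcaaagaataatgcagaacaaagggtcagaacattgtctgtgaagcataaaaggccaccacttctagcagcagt
Hba-x: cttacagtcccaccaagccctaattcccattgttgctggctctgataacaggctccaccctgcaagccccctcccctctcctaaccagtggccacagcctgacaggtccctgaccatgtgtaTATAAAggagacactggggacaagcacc
Hba-a1: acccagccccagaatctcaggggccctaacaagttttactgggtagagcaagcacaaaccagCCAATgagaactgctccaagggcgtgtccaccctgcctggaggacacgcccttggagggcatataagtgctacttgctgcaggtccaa

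The motifs searched on both strands were CACACCC, a word of the kind bound by the red cell factor Klf1, AGATAA, of the kind bound by GATA factors, CCAAT, the core of the CCAAT box, and TATAAA, the word at which the basal transcription machinery is placed. Among the 6 windows of 250 bases before the start, CACACCC was found in Hbb-bs alone, 92 to 86 bases before the start, and AGATAA in Hbb-bs alone, 210 to 205 bases before the start and so outside the stretch shown. CCAAT was found in all windows except that of Hba-x, and TATAAA in Hbb-bt and Hba-x, in both 28 to 23 bases before the start. Of 32851 promoter windows of the same length in the table, 6.93% held CACACCC, 9.99% AGATAA, 33.8% CCAAT and 12.4% TATAAA. The matches did not overlap each other, and they are matches of letters only. Variants of these words were not searched, so a window without a match may still hold a related word. The windows of Hba-a1 and Hba-a2, 300 bases long with 50 bases after the start, shared an unbroken run of 297 bases, while Hbb-bs and Hbb-bt shared at most 14 bases in a row. The members of each adult pair also have near-identical transcripts, and how the authors counted reads that match both is not given in the sources used here, so the split of reads within a pair is uncertain.

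Hbb-bs, an adult beta chain gene, had 0, 0.0244 and 19.8 scaled RPKM in the mutant libraries of day 4, against 0, 0 and 0.0457 in the wild-type libraries. On day 5 it had 0, 0.160 and 27.005 scaled RPKM in mutant cells, against 0, 0.0223 and 0 in wild-type cells. On day 6 it had 61.0, 181 and 155 scaled RPKM in mutant cells, against 0.0796, 0.0460 and 1.53 in wild-type cells. The mutant libraries of day 6 were all above every wild-type library, while on days 4 and 5 replicate 3 alone was high and the ranges of the genotypes overlapped. These levels rested on 905 reads in mutant replicate 3 of day 4, 1238 in mutant replicate 3 of day 5 and 2926, 8419 and 6702 in the mutant libraries of day 6, against 75 reads in wild-type replicate 3 of day 6. The log2 difference on the log2(scaled RPKM + 0.5) scale was 1.76, 2.04 and 7.12 on days 4, 5 and 6. Without replicate 3, the mean mutant level was 0.0122 scaled RPKM on day 4 and 0.0800 on day 5.

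Hbb-bt, the other adult beta chain gene, followed Hbb-bs. It had 0, 0.0266 and 12.7 scaled RPKM in the mutant libraries of day 4, against 0, 0 and 0.0250 in wild-type ones. On day 6 it had 51.8, 153 and 133 scaled RPKM in mutant libraries, against 0.0869, 0 and 1.44 in wild-type ones. On day 5 it had 0, 0.125 and 22.9 scaled RPKM in mutant libraries, against 0 in each wild-type one. As for Hbb-bs, replicate 3 alone was high on days 4 and 5, and on day 6 the genotypes did not overlap. Its group mean was highest in mutant cells of day 6, at 113 ± 53.6 scaled RPKM, against 0.510 ± 0.810 in wild-type cells of that day (SD, n = 3 each). Its log2 difference was 1.57, 1.96 and 6.95 on days 4, 5 and 6. The level of Hbb-bs over that of Hbb-bt was 1.17 to 1.18 in mutant replicate 3 of day 5 and in the 3 mutant libraries of day 6, and 1.56 in mutant replicate 3 of day 4.

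The adult alpha genes differed from the adult beta genes in 2 further places. Hba-a1 had 0.938, 1.15 and 27.9 scaled RPKM in the mutant libraries of day 5, against 0.0774, 0.295 and 0.0611 in the wild-type libraries, so that replicates 1 and 2 of the mutant carried adult alpha globin while their Hbb-bs stood at 0 and 0.160. Without replicate 3, the mutant mean was 1.04 scaled RPKM on day 5 and 0.186 on day 4. On day 6 Hba-a1 had 64.3, 180 and 144 scaled RPKM in mutant libraries, against 0.358, 0.130 and 23.7 in wild-type ones. Wild-type replicate 3 of day 6 therefore held adult alpha globin, with 1231 reads in Hba-a1, beside 75 reads in Hbb-bs. Hba-a2 gave the same picture, with 72.0, 205 and 165 scaled RPKM in mutant libraries of day 6, against 0.275, 0.132 and 22.3 in wild-type ones. Without replicate 3, the wild-type means on day 6 were 0.244 scaled RPKM for Hba-a1 and 0.204 for Hba-a2. On day 5 Hba-a2 had 1.12, 1.21 and 31.6 scaled RPKM in mutant libraries, against 0.0942, 0.283 and 0.0744 in wild-type ones, again without overlap. The log2 difference on days 4, 5 and 6 was 1.48, 2.67 and 5.66 for Hba-a1 and 1.65, 2.79 and 5.92 for Hba-a2. On day 4 both genes were high in mutant replicate 3 alone, at 18.7 scaled RPKM for Hba-a1 and 21.8 for Hba-a2.

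**Figure D1:**
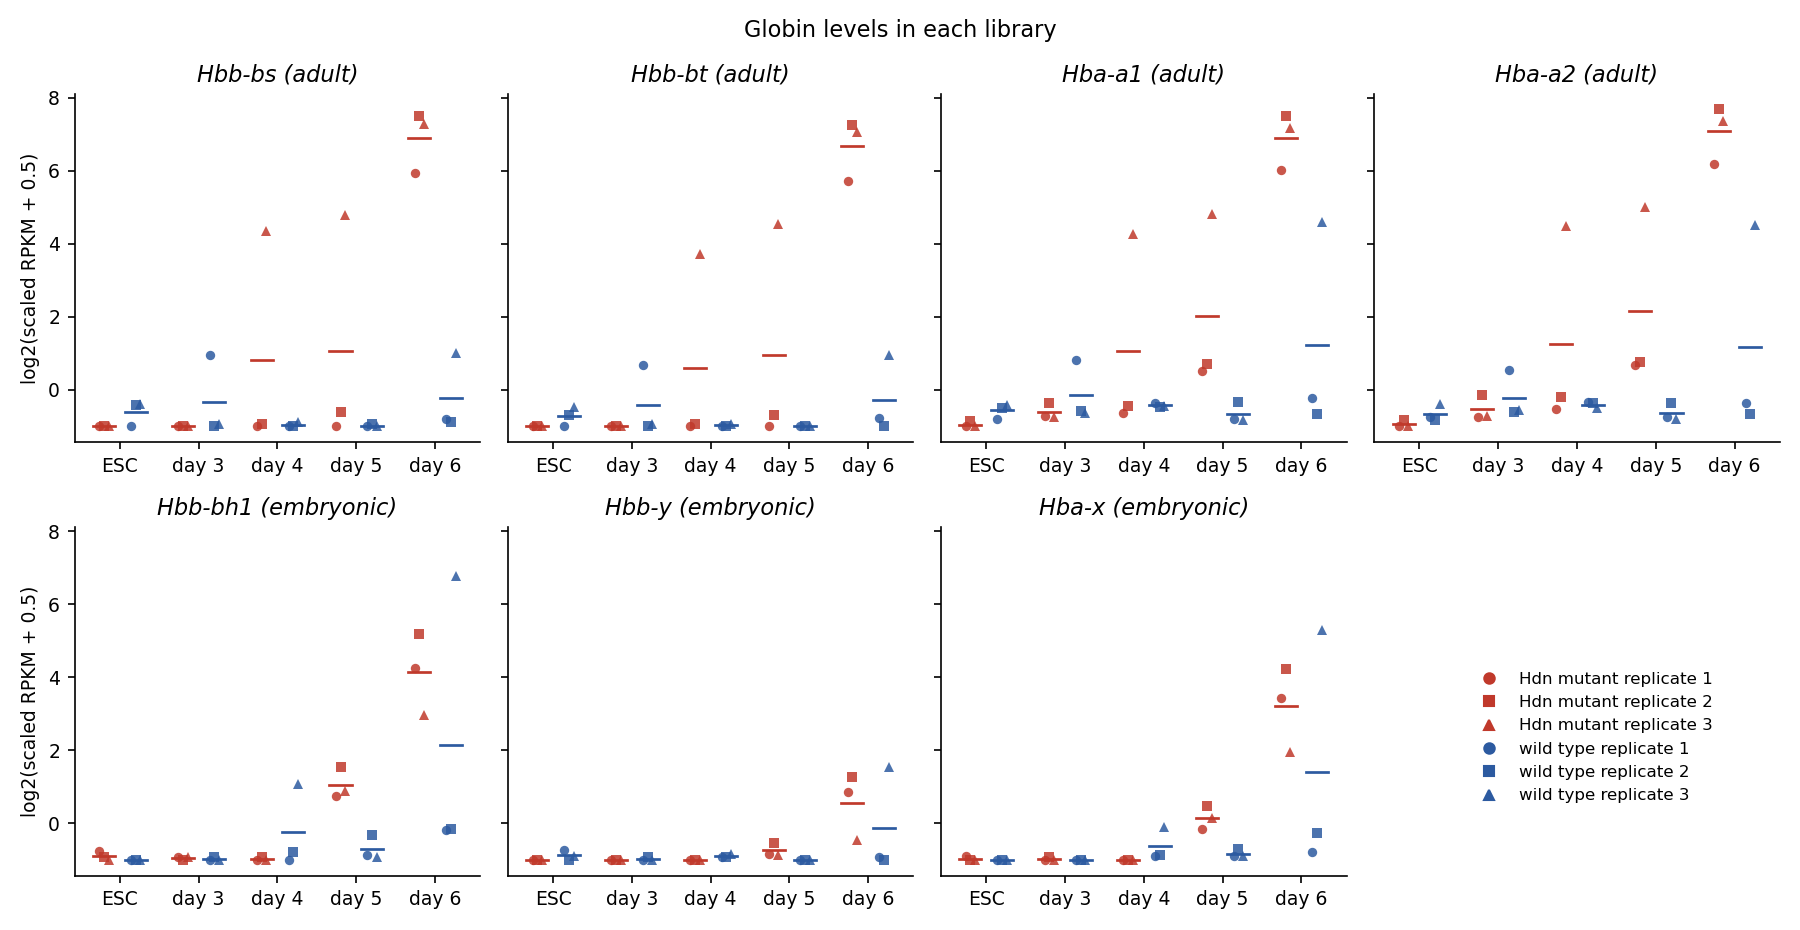
Level of each globin gene as log2(scaled RPKM + 0.5) in every library, by stage, with mutant libraries in red left of wild-type libraries in blue; markers give the replicate and bars the mean of the 3 log2 values. The adult genes are high in mutant replicate 3 of days 4 and 5 and in the 3 mutant libraries of day 6, and the embryonic genes are highest in wild-type replicate 3 of day 6.

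Hbb-bh1, the beta chain gene of the youngest primitive red cells, had 0, 0.0305 and 0 scaled RPKM in the mutant libraries of day 4, against 0, 0.0809 and 1.60 in wild-type ones. On day 5 it had 1.18, 2.40 and 1.34 scaled RPKM in mutant libraries, against 0.0513, 0.307 and 0.0270 in wild-type ones. On day 6 it had 18.6, 36.0 and 7.35 scaled RPKM in mutant libraries, against 0.374, 0.403 and 109 in wild-type ones. The mutant libraries of day 5 were all above the wild-type libraries, and on day 6 wild-type replicate 3 exceeded every mutant library while the other 2 wild-type libraries were below all of them. The mean on day 6 was 20.7 ± 14.4 scaled RPKM in mutant and 36.8 ± 63.0 in wild-type cells (SD, n = 3 each), and without replicate 3 the wild-type mean was 0.389. That 1 wild-type library thus decides which genotype has the higher mean. The mutant libraries of day 6 held 712, 1337 and 253 Hbb-bh1 reads, against 4298 in that wild-type library. The difference of the mean log2 values was -0.73, 1.75 and 1.99 on days 4, 5 and 6. On day 6 its sign is opposite to that of the difference of the mean levels, since the log scale gives less weight to the 1 high wild-type library.

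Hba-x, the embryonic alpha chain gene, moved with Hbb-bh1. It was at 0 in the 3 mutant libraries of day 4, against 0.0343, 0.0529 and 0.430 scaled RPKM in the wild-type ones. On day 5 it had 0.396, 0.898 and 0.607 scaled RPKM in mutant libraries, against 0.0335, 0.110 and 0.0353 in wild-type ones. On day 6 it had 10.3, 18.3 and 3.38 scaled RPKM in mutant libraries, against 0.0815, 0.339 and 38.6 in wild-type ones. The same wild-type library was again the highest, and the mean was 10.7 ± 7.46 scaled RPKM in mutant cells, against 13.01 ± 22.2 in wild-type cells (SD, n = 3 each). Without that library the wild-type mean was 0.210, so it decides which genotype has the higher mean of Hba-x too. The difference of the mean log2 values was -0.38, 1.00 and 1.79 on days 4, 5 and 6, on day 6 again with the sign opposite to that of the mean levels.

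Hbb-y, the later of the embryonic beta genes, stayed low. It reached 1.32, 1.93 and 0.225 scaled RPKM in the mutant libraries of day 6 and 2.42 in wild-type replicate 3, and the other wild-type libraries of that day had 0.0241 and 0. On day 5 it had 0.0560, 0.194 and 0.0529 scaled RPKM in mutant libraries, on 2, 7 and 2 reads, and 0 in each wild-type one. Hbb-bh1 stood 14.1 and 18.7 times above Hbb-y in mutant replicates 1 and 2 of day 6, and 45.3 times above it in wild-type replicate 3. Mutant replicate 3 had 8 Hbb-y reads, too few for a ratio.

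All 3 mutant values lay above all 3 wild-type values for 5 of the 7 genes on day 5 (the adult alpha pair and the 3 embryonic genes) and for the 4 adult genes on day 6, and below them for Hba-x and Hbb-y on day 4. Of 14196 genes tested, 18.3% were above in this way on day 4, 13.8% on day 5 and 18.4% on day 6, and 18.9%, 16.4% and 20.7% were below. The members were chosen on these contrasts, so nothing is read from the counts. In the order of group means, the 4 adult genes were highest in mutant cells of day 6, whose range did not overlap that of mutant cells of day 5, the next group. For Hba-x and Hbb-bh1, wild-type cells of day 6 came first and mutant cells of day 6 second, with overlapping ranges, and mutant cells of day 5 came next, outside the range of those of day 6.

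The embryonic share of the beta-type level (Hbb-bh1 and Hbb-y of all 4 beta-type genes) was 15.0%, 10.2% and 2.56% in the mutant libraries of day 6, and 97.4% in wild-type replicate 3 of day 6. By reads, that was 12.8% (95% exact Clopper-Pearson interval 11.97 to 13.7%), 8.63% (8.21 to 9.07%) and 2.14% (1.89 to 2.41%) in the mutant libraries, and 96.9% (96.4 to 97.4%) in the wild-type library. Wild-type replicate 1 had 16 embryonic of 24 beta-type reads (interval 44.7 to 84.4%) and replicate 2 had 14 of 16. In these counts every wild-type library of day 6 was mostly embryonic in its beta-type reads and every mutant library mostly adult. For wild-type replicate 1 the interval does not exclude an adult majority.

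On day 5 the mutant libraries disagreed among themselves. The embryonic share of the beta-type level was 100% and 90.1% in mutant replicates 1 and 2, on 43 and 103 beta-type reads, and 2.71% in replicate 3, on 2249 reads. Replicate 3 had about as much embryonic beta globin as the others, 1.39 scaled RPKM against 1.24 and 2.60, so the adult genes set its share. In mutant replicate 3 of day 4, 0 of 1435 beta-type reads were embryonic, which allows up to 0.257% (exact Clopper-Pearson), and 0 of 1766 alpha-type reads, which allows up to 0.209%. In wild-type replicate 3 of day 4, 58 of 61 beta-type reads were embryonic.

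The embryonic share of the alpha-type level (Hba-x of the 3 alpha-type genes) was 7.05%, 4.53% and 1.08% in the mutant libraries of day 6, against 11.4%, 56.3% and 45.6% in the wild-type ones. By reads, the share was 8.82%, 5.72% and 1.38% in the mutant libraries, against 13.9%, 62.1% and 51.5% in the wild-type ones. The first 2 wild-type values rested on 36 and 29 reads, and the exact Clopper-Pearson interval of replicate 1, 4.67 to 29.5%, spans the values of mutant replicates 1 and 2. A difference between that library and these 2 mutant libraries was therefore not detectable at this depth.

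**Figure D2:**
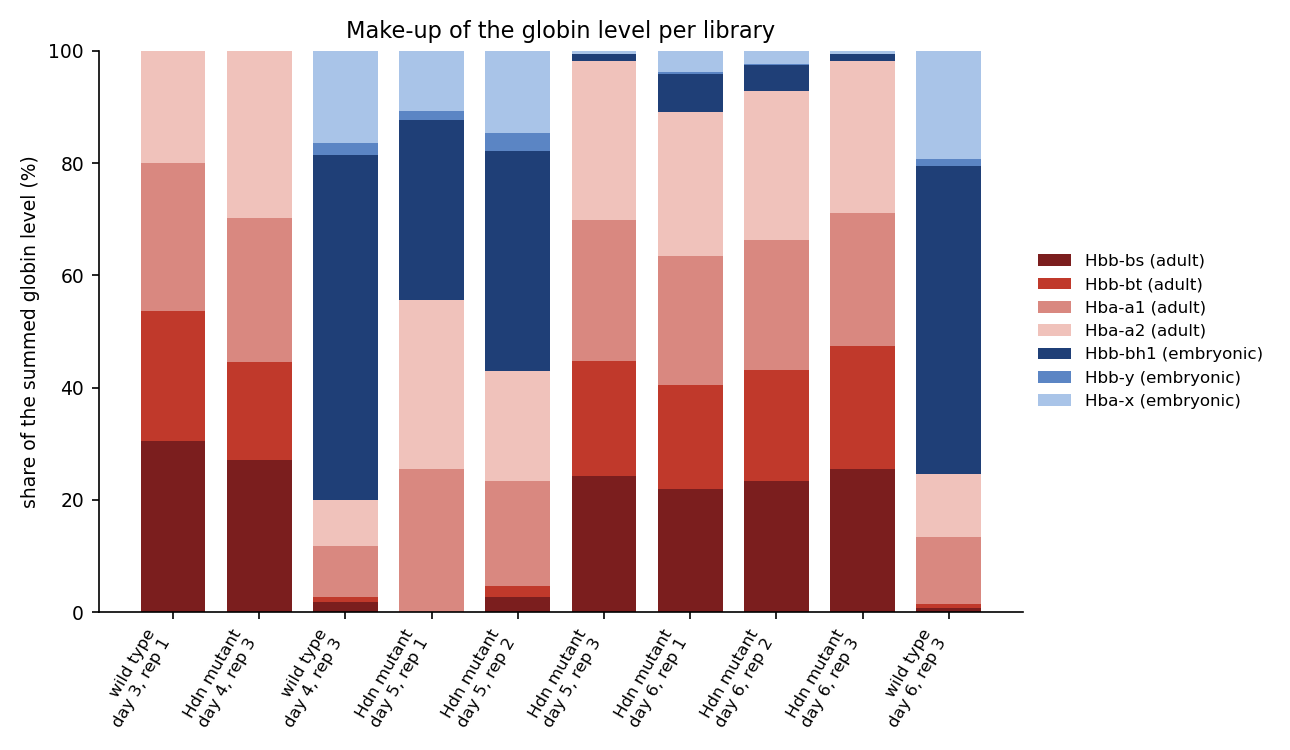
Share of each globin gene in the summed globin level (percent of scaled RPKM, stacked bars) in the 10 libraries with at least 100 reads in the 7 genes, in order of stage. Red shades are adult and blue shades embryonic genes. Adult genes make up nearly all of the bars of mutant replicate 3 of days 4 and 5 and most of the 3 mutant bars of day 6, while Hbb-bh1 is the largest part of the wild-type bars of days 4 and 6.

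The ratio of adult beta to adult alpha globin differed between the mutant libraries and that wild-type library. Summed over each pair, the level of adult beta over adult alpha globin was 0.803 in mutant replicate 3 of day 4, 0.838 in mutant replicate 3 of day 5 and 0.828, 0.867 and 0.933 in the mutant libraries of day 6. It was 0.0646 in wild-type replicate 3 of day 6. Among the embryonic genes, Hbb-bh1 stood at 1.80, 1.97 and 2.17 times Hba-x in the mutant libraries of day 6 and at 2.84 times in wild-type replicate 3. All 7 genes together made up 0.0648%, 0.158% and 0.122% of the summed RPKM in the mutant libraries of day 6, and 0.0391% in wild-type replicate 3.

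**Figure D3:**
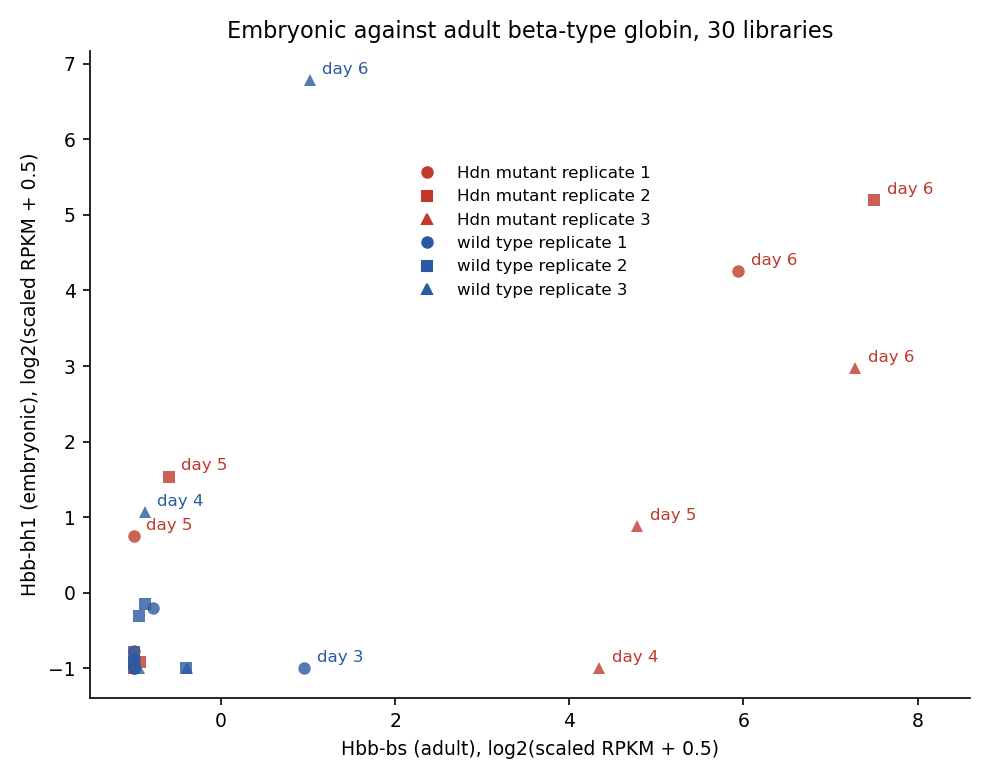
Hbb-bh1 (embryonic, vertical axis) against Hbb-bs (adult, horizontal axis), both as log2(scaled RPKM + 0.5), for the 30 libraries; mutant in red, wild type in blue, markers by replicate, and labels giving the day of libraries with a high value. Wild-type replicate 3 of day 6 lies high on the embryonic axis with 1.53 scaled RPKM of Hbb-bs, and mutant replicate 3 of day 4 lies at 19.8 scaled RPKM of Hbb-bs with no Hbb-bh1 read.

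Before day 4 the globins were near 0, and these stages were not used to choose the genes. The tests at these stages had little power, however: all 7 genes passed the filter of 1 scaled RPKM in at least 3 libraries through later libraries in which they were high, and their standard errors, 0.42 to 1.16, include the spread of those libraries. Nothing is read from the lack of calls. In ESCs, Hbb-bs was at 0 in all 3 mutant libraries, against 0, 0.254 and 0.261 scaled RPKM in wild-type ones. On day 3 it was at 0 in all 3 mutant libraries, against 1.44, 0 and 0.0194 scaled RPKM in wild-type ones. No member was called in either comparison in limma, where a gene was called at p under 0.05 after Benjamini-Hochberg adjustment if its log2 difference was also at least 1, and none had an unadjusted p under 0.05. Of all genes tested, 11.7% were called in ESCs (8.55% higher and 3.13% lower in the mutant) and 3.35% on day 3 (0.873% higher and 2.48% lower). The largest differences were those of Hbb-bs, -0.40 ± 1.14 (SE) in ESCs and -0.67 ± 1.14 on day 3, with limma adjusted p of 0.818 and 0.761.

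The same limit holds for wild-type day 5 against wild-type ESCs, groups that were not used to choose the genes. There 0 of 7 globins were called in limma and none had an unadjusted p under 0.05; 41.9% of all genes were called (19.9% higher and 22% lower on day 5), which is given for completeness and not as a contrast. Hbb-bh1 had 0.0513, 0.307 and 0.0270 scaled RPKM on day 5, against 0 in each wild-type ESC library, a log2 difference of 0.30 ± 1.04 (SE, limma adjusted p = 0.803).

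Wild-type replicate 1 of day 3 held 98 beta-type reads, none of them embryonic, which allows a share of up to 3.69% (exact Clopper-Pearson), and 86 alpha-type reads, also none embryonic. Its adult beta over adult alpha ratio was 1.15. The same library had 2.00 scaled RPKM of the macrophage marker Lyz2, against 0.0514 and 0 in the other wild-type libraries of day 3, and 1.48 of Aqp1, a water channel of red cells and vessels, against 0.00644 and 0.0227. In wild-type ESC replicates 2 and 3, which also held adult globin reads, Lyz2 stood at 0.280 and 0.424 scaled RPKM, and in replicate 1, with no adult beta read, at 0. Of the other macrophage markers, Adgre1, C1qa, C1qb and C1qc had 47, 48, 21 and 44 reads in wild-type replicate 1 of day 3. They had 0 in the other wild-type libraries of that day, 2 to 16 in wild-type ESC replicates 2 and 3 and 0 in ESC replicate 1. Cd68 went the other way on day 3, with 630 reads in replicate 1, against 1256 and 1384 in replicates 2 and 3. Csf1r differed little, at 0.156 to 0.180 scaled RPKM over the 3 wild-type libraries of day 3, on 40, 49 and 59 reads. Cd68 made up most of the sum of the 7 markers. That sum was 13.7 scaled RPKM in replicate 1, the lowest of the 3 wild-type libraries of day 3 (highest 17.1). These macrophage markers and Aqp1 were named after their values were seen, and their part in the result was not tested.

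The genes whose pattern was most like that of Hbb-bs across the 30 libraries, by Pearson's r on log2(scaled RPKM + 0.5), were genes of heart muscle. The 8 closest outside the members were Cox6a2 (r = 0.984), Myl2 (0.982), Cox8b (0.976), Myh6 (0.973), Hspb7 (0.964), Pln (0.963), Ckm (0.962) and Actn2 (0.956). Myl2 is the ventricular myosin light chain, Myh6 a cardiac myosin heavy chain, Cox6a2 and Cox8b are muscle forms of cytochrome oxidase subunits, Ckm is muscle creatine kinase, Pln regulates the calcium pump, and Actn2 is a Z-disc protein. The libraries are not independent points: 5 had high levels of both and 25 low levels. Among the members, r to Hbb-bs was 0.999 for Hbb-bt and 0.964 for both adult alpha genes, but 0.670 for Hba-x, 0.652 for Hbb-bh1 and 0.596 for Hbb-y.

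Myl2 had 0.117, 0.144 and 17.1 scaled RPKM in the mutant libraries of day 4, against 0.0577, 0.00848 and 0.0540 in wild-type ones. On day 6 it had 45.2, 129 and 115 scaled RPKM in mutant libraries, against 0.0157, 0.0362 and 0.0721 in wild-type ones. The level of Hbb-bs over that of Myl2 was 1.16 and 1.31 in mutant replicate 3 of days 4 and 5 and 1.35, 1.41 and 1.36 in the mutant libraries of day 6, while Hbb-bs itself ranged from 19.8 to 181 scaled RPKM over the same 5 libraries. It was 21.2 in wild-type replicate 3 of day 6 and 14.7 in wild-type replicate 1 of day 3. These 2 libraries held 9 and 10 Myl2 reads, too few for a firm ratio. Against Mb, the muscle oxygen-binding protein myoglobin, the ratio of Hbb-bs was 2.07 to 2.48 in the 5 mutant libraries. It was 0.728 in wild-type replicate 3 of day 6, but 2.15, within the mutant range, in wild-type replicate 1 of day 3. The ratio of Hbb-bh1 to Myl2 was 0, 0.0648, 0.412, 0.280 and 0.0641 in those 5 libraries. The 5 libraries were picked by their Hbb-bs level, so these ratios are a description and no comparison of Hbb-bs with Hbb-bh1 is drawn from them.

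The whole list of 10 mature heart muscle genes summed to 3.69 to 50.3 scaled RPKM in mutant and 3.77 to 4.25 in wild-type libraries of day 4, to 4.68 to 69.1 in mutant and 3.83 to 3.92 in wild-type libraries of day 5, and to 158 to 432 in mutant and 3.22 to 5.47 in wild-type libraries of day 6. Cox8b was at 0 in all wild-type libraries. Several of these genes, such as Cox8b, Ckm and Myl2, passed the filter only through the mutant libraries in which they were high, so no count of calls is given for the list. Heart muscle transcripts moved with adult globin, and their part in the globin result was not tested.

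**Figure D4:**
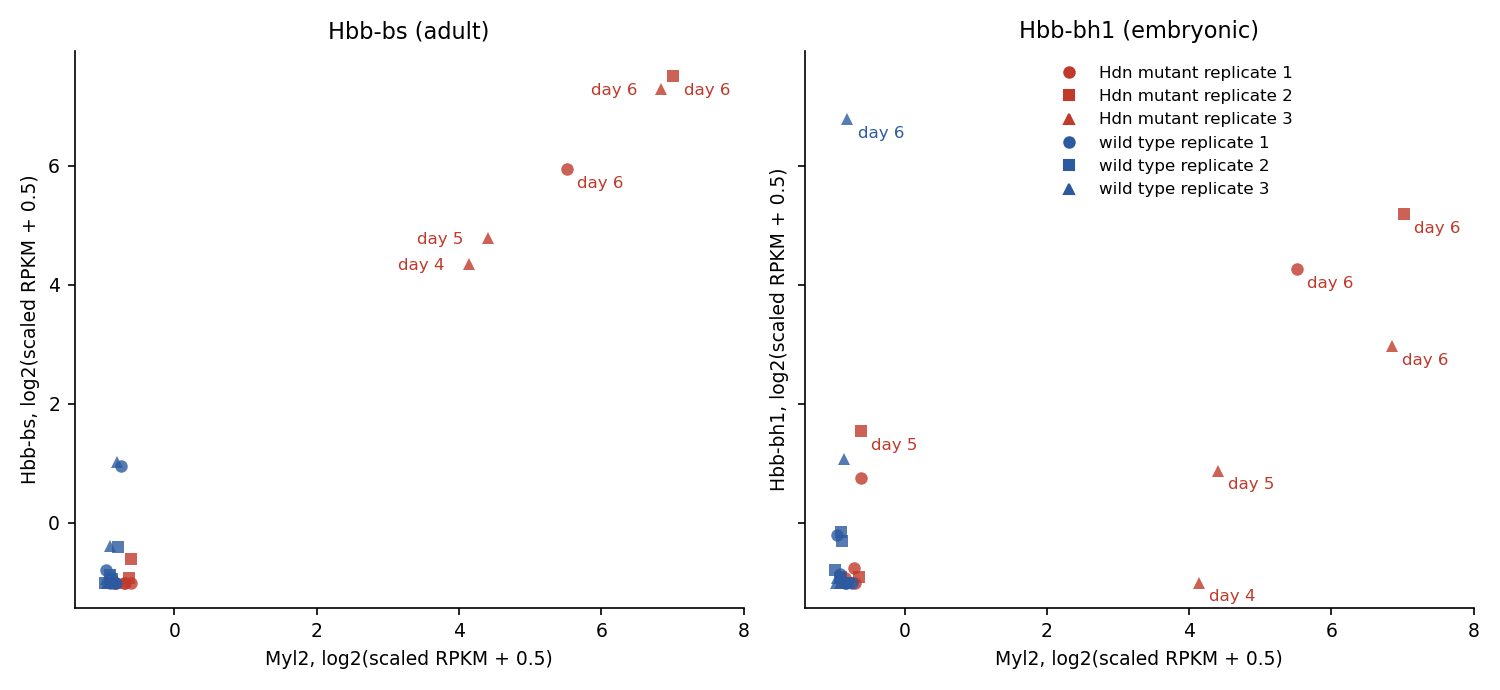
Hbb-bs (left panel) and Hbb-bh1 (right panel) against Myl2, all as log2(scaled RPKM + 0.5), for the 30 libraries, with mutant in red, wild type in blue and markers by replicate. The 5 mutant libraries with Hbb-bs above 10 scaled RPKM fall near 1 line in the left panel; in the right panel they scatter, and wild-type replicate 3 of day 6 combines 109 scaled RPKM of Hbb-bh1 with 0.0721 of Myl2.

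The genes most like Hbb-bh1 by the same measure were Postn (r = 0.941), Pgm5 (0.922), Tcf21 (0.917), Lyl1 (0.915), Rem1 (0.912), Wnt2 (0.901), Lum (0.898) and Bves (0.890). Postn, an extracellular matrix protein, had 6.44 scaled RPKM and Wnt2, a secreted signal, had 14.6 in wild-type replicate 3 of day 6. Lyl1 is a blood and endothelial transcription factor of the Tal1 family. Among the members, r to Hbb-bh1 was 0.990 for Hba-x and 0.942 for Hbb-y, and about 0.8 for the adult alpha genes (0.800 and 0.793).

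Genes that red cells need besides globin were followed as lists. Of 26 genes of the red cell membrane and its enzymes, 25 were in the table and 9 passed the filter. Of these, 0 were called higher and 1 lower in the mutant on day 4, none either way on day 5, and 1 higher and 1 lower on day 6 in limma, where 5.18%, 6.01% and 7.78% of all genes were called in either direction. The median log2 difference of the 9 was -0.22, -0.14 and 0.28 on days 4, 5 and 6, against -0.0035, -0.00097 and 0.0058 over all genes. On day 5, where none of the 9 was called, 2 were called without wild-type replicate 1 and 1 without mutant replicate 1.

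The called members of this list are also expressed outside red cells. Sptb, the beta spectrin of red cells and muscle, had 2.74, 2.34 and 1.72 scaled RPKM in the mutant libraries of day 6, against 1.02, 0.541 and 0.496 in wild-type ones (log2 difference 1.23 ± 0.25 SE, limma adjusted p = 0.000687). Car2, a carbonic anhydrase found in red cells and many other tissues, had 12.2, 8.69 and 12.6 scaled RPKM in mutant libraries of day 6, against 37.7, 56.6 and 44.2 in wild-type ones (-2.001 ± 0.27 SE, limma adjusted p = 4.09e-06). Dmtn, an actin-binding protein of the red cell skeleton, fell on day 4 by 1.20 on the log2 scale (limma adjusted p = 4.69e-05). It was lower before that too, in ESCs (-1.64, limma adjusted p = 1.67e-07) and on day 3 (-1.24, limma adjusted p = 4.14e-05). Slc4a1, the anion exchanger of red cells, was at most 0.0607 scaled RPKM on day 6, and Icam4 was at 0 in all libraries.

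Haem and iron genes were lower, not higher, in the mutant where they were called on days 4 to 6. Of 18 genes, 17 passed the filter, and 0 were called higher against 3, 4 and 3 lower on days 4, 5 and 6 in limma, where 2.81%, 3.59% and 4.12% of all genes were called lower. The list's median log2 difference was -0.35, -0.37 and -0.52 on these days. Hmox1 (haem breakdown), Steap3 (iron reduction) and Tfrc (the transferrin receptor) fell on all 3 days, and Slc25a37 (mitochondrial iron import) on day 5. Before these days, Hmox1 had fallen on day 3 (-1.15, limma adjusted p = 0.00297). In ESCs Steap3 was called lower (-1.37, limma adjusted p = 0.0026) and Tfrc higher (1.48, limma adjusted p = 0.00605). On day 4 the calls of Steap3 and Tfrc ended when the 6 compared libraries were fitted alone (limma adjusted p = 0.103 and 0.0928). The call of Slc25a37, at -1.01, ended without wild-type replicate 3 (-0.99), mutant replicate 1 (-0.95) or mutant replicate 2 (-0.97). Tfrc had 8.24, 9.61 and 8.11 scaled RPKM in the mutant libraries of day 6, against 27.9, 54.8 and 38.0 in wild-type ones (log2 difference -2.10 ± 0.42 SE, limma adjusted p = 0.000497). Without the 5 libraries high in adult beta globin, an alternative added after the data were seen, the list still had 3 calls on day 4 and 4 on day 5.

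Alas2, the red cell form of the first enzyme of haem synthesis, lay below the filter and was not tested. It had 0.353, 0.845 and 0.615 scaled RPKM in the mutant libraries of day 6, on 53, 123 and 83 reads, against 0.0827, 0.0882 and 0.370 in wild-type ones, on 13, 12 and 57 reads. The highest of the wild-type values was that of replicate 3, the library with embryonic globin. In mutant replicate 3 of day 4, with 905 Hbb-bs reads, Alas2 had 0.1399 scaled RPKM on 20 reads, within the 0.0602 to 0.153 of the wild-type libraries of that day.

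Of 18 globin regulators, 9 passed the filter. In limma, 0 were called higher and 2 lower in the mutant on day 4, 0 and 2 on day 5, and 2 and 1 on day 6. Of all genes, 2.37%, 2.42% and 3.66% were called higher and 2.81%, 3.59% and 4.12% lower on these days. The list's median log2 difference was -0.04, 0.38 and 0.14. The 2 called higher on day 6, Lyl1 and Lmo2, passed the filter only with the mutant libraries of that day. Nothing is read from these 2 calls. Lyl1 had 2.06, 4.01 and 1.19 scaled RPKM in mutant libraries of day 6, against 0.0934, 0.206 and 1.46 in wild-type ones (1.52 ± 0.31 SE, limma adjusted p = 0.000632). Lmo2, which bridges Tal1 and GATA factors, had a log2 difference of 1.04 ± 0.31 (limma adjusted p = 0.0136). That call ended without 1 of 3 libraries (wild-type replicate 1, mutant replicate 1 or mutant replicate 2), where the log2 difference was 0.77, 0.86 and 0.97. Gata2, a factor of blood progenitors, fell on all 3 days, with 10.1, 11.98 and 9.42 scaled RPKM in mutant libraries of day 6, against 27.5, 53.5 and 34.6 in wild-type ones (-1.78 ± 0.30 SE, limma adjusted p = 7.52e-05). Gata2 had already fallen on day 3 (-2.77 ± 0.30 SE, limma adjusted p = 5.59e-07). Klf2, which the ESC marker list also holds, fell on day 4 (-3.54 ± 0.63 SE, limma adjusted p = 0.000227) and on day 5 (-1.99, limma adjusted p = 0.0244). It too had already fallen on day 3 (-3.65, limma adjusted p = 0.000222). The day 5 call of Klf2 ended without the 5 adult beta globin libraries (-1.59, limma adjusted p = 0.0666). It also ended without wild-type replicate 1 (-1.47), wild-type replicate 3 (-1.99), mutant replicate 1 (-2.01) or mutant replicate 3 (-1.59).

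Levels of further regulators are given for genes named after their values were seen. Klf1, which activates adult beta globin, had 0.262, 0.334 and 0.151 scaled RPKM in the mutant libraries of day 6, against 0.290, 0.254 and 0.592 in wild-type ones, and it had 0.587 to 0.9999 in mutant and 0.9499 to 1.24 in wild-type ESC libraries. Gata1 had 0.210, 0.311 and 0.175 scaled RPKM in the mutant libraries of day 6, against 0.270, 0.999 and 1.08 in wild-type ones. Over the 5 adult beta globin libraries, Klf1 lay between 0.0876 and 0.334 scaled RPKM and Gata1 between 0.0483 and 0.311, against medians of 0.378 and 0.430 over the other 25. Tal1, a blood and endothelial factor, had a median of 0.647 scaled RPKM in the 5 libraries, against 0.0646 over the other 25, and the medians of Lyl1 were 1.19 against 0.0762 and those of Lmo2 1.48 against 0.397. These 3 genes were thus higher, and Klf1 and Gata1 lower, by their medians. Stages were not matched in this, since the other 25 include all ESC libraries. In these, Gata1 had 0.844 to 0.979 scaled RPKM in mutant and 0.430 to 0.730 in wild-type cells. On day 4, Klf1 had 0.110 to 0.125 scaled RPKM over the 3 mutant libraries, while Gata1 had 40, 46 and 7 reads in them. On day 5, the mutant replicates had 15, 15 and 8 reads of Klf1 and 62, 56 and 34 of Gata1. For Tal1, Lyl1 and Lmo2 the median was a value of day 6, and the earlier libraries differed. Mutant replicate 3 of day 4 had 0.0614, 0.0560 and 0.116 scaled RPKM of them, each below the median of the other 25. On day 5, mutant replicate 3 had 31, 17 and 43 reads of them. That was fewer than the 98, 41 and 107 of mutant replicate 1 and the 207, 75 and 217 of mutant replicate 2. Sox6, which represses embryonic beta globin, had 0.363, 0.422 and 0.321 scaled RPKM in mutant libraries of day 6, against 0.0886, 0.0821 and 0.270 in wild-type ones. Bcl11a, another repressor of embryonic globin, was at most 0.0489 scaled RPKM on that day.

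**Figure D5:**
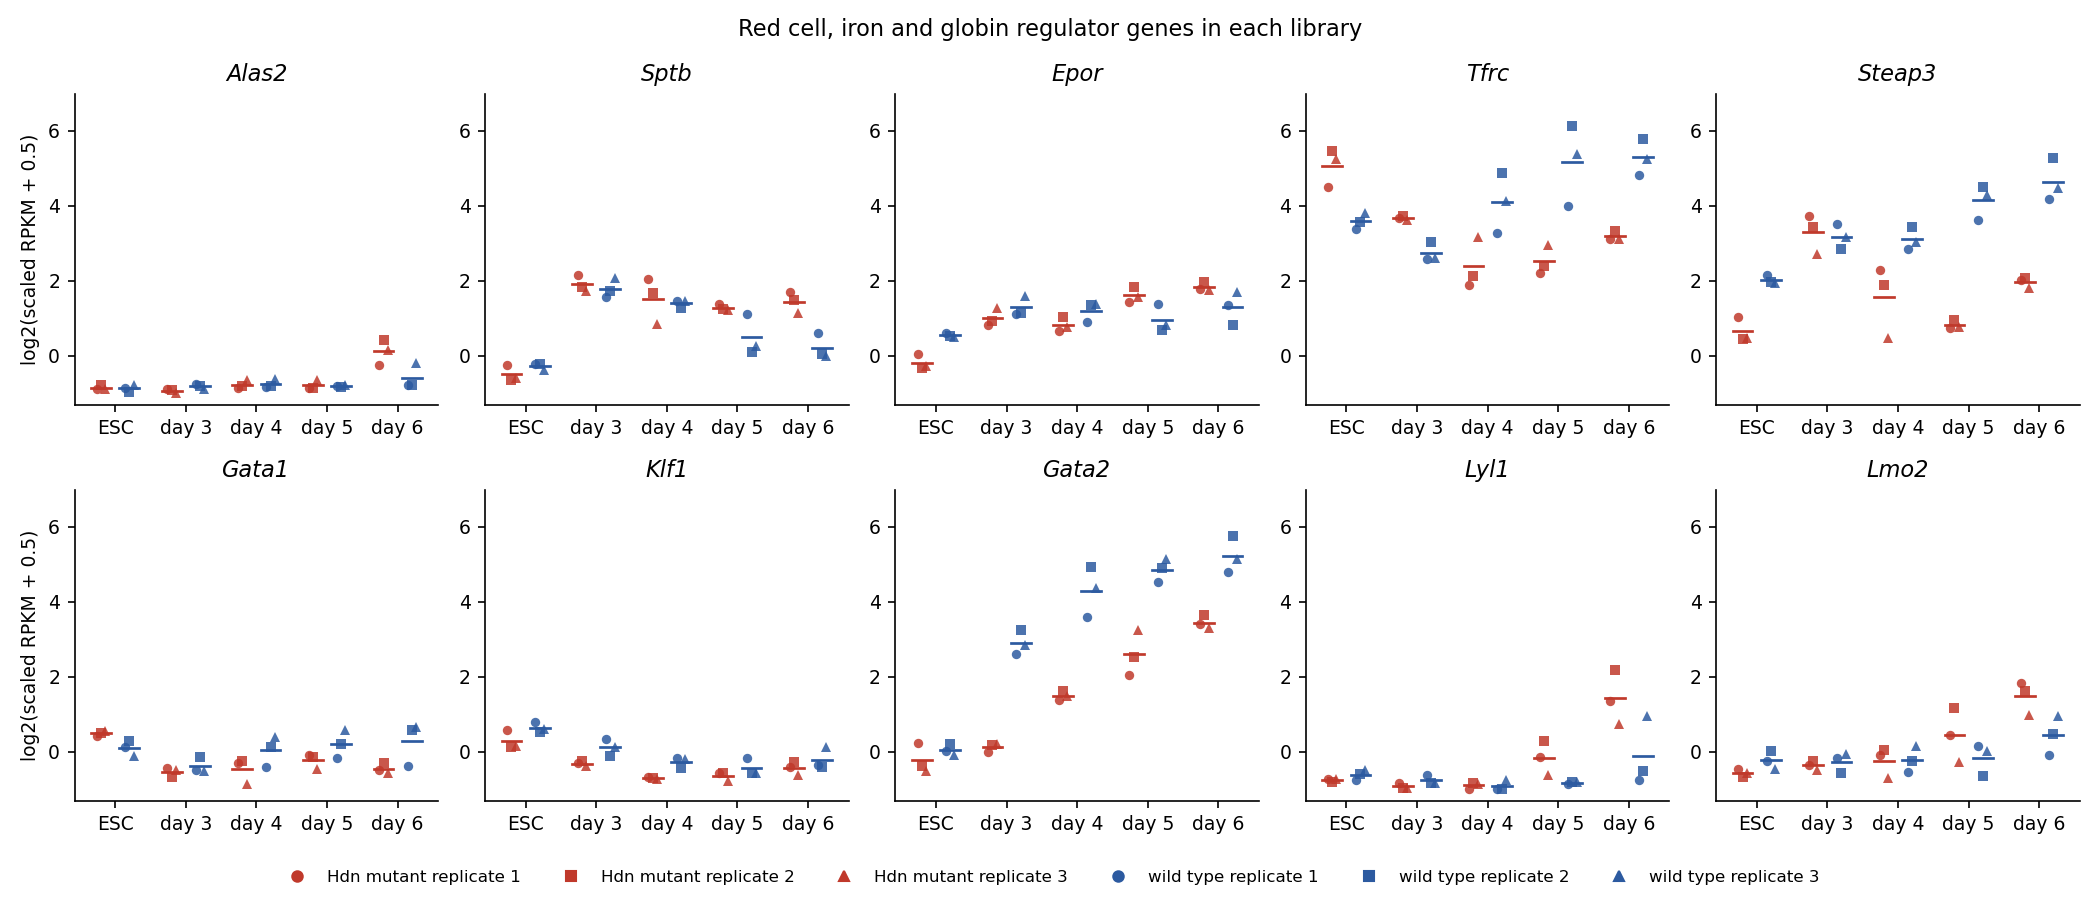
Levels of 10 red cell, iron and globin regulator genes as log2(scaled RPKM + 0.5) in every library by stage, mutant in red left of wild type in blue, with markers by replicate and bars at the mean of the 3 log2 values. Tfrc, Steap3 and Gata2 are lower in mutant than in wild-type libraries on days 4 to 6, Klf1 stays near the bottom of the scale on day 6, and Lyl1 is high in the mutant libraries and in wild-type replicate 3 of day 6.

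Of 10 other globin genes, 8 were in the table and 2 passed the filter, Mb and Cygb. Mb rose in the mutant on day 6, when 3.66% of all genes were called higher. Cygb was called higher on that day too. It passed the filter only with the mutant libraries of day 6, so nothing is read from its call. Mb had 26.1, 73.1 and 65.0 scaled RPKM in mutant libraries, against 1.88, 2.48 and 2.10 in wild-type ones (4.25 ± 0.58 SE, limma adjusted p = 6.42e-06). Cygb, the cytoglobin of fibroblast-like cells, had 1.48, 3.27 and 1.75 scaled RPKM in mutant libraries, against 0.269, 0.311 and 1.57 in wild-type ones (1.24 ± 0.25 SE, limma adjusted p = 0.000526). The call of Cygb ended without wild-type replicate 1 (0.99) or mutant replicate 2 (0.96). The pseudogene Hbb-bh0 had 0.869, 2.43 and 0.276 scaled RPKM in mutant libraries of day 6, on 7, 19 and 2 reads, against 0, 0 and 2.06 in wild-type ones, on 0, 0 and 17 reads, and it was at 0 in all libraries of the other stages. It lies among the beta-type genes, so reads shared with them are possible.

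Markers of other blood and organ cells were followed as sums over each list. The 6 neutrophil markers summed to 0.0556 to 0.171 scaled RPKM in the mutant libraries of day 6, against 0.302 to 0.439 in wild-type ones, and the 4 lung markers to 0.0407 to 0.201 in mutant and 0.0875 to 0.155 in wild-type libraries. The 7 macrophage markers summed to 10.2 to 17.9 scaled RPKM in mutant and 16.9 to 28.7 in wild-type libraries of day 6, the 6 lymphocyte markers to 1.73 to 3.46 in mutant and 1.52 to 1.65 in wild-type libraries, and the 6 platelet markers to 7.25 to 11.8 in mutant and 4.32 to 11.9 in wild-type libraries. The liver marker Alb was at 0 in all 30 libraries, and the 6 liver markers summed to 9.77 to 14.8 scaled RPKM in mutant and 4.56 to 10.2 in wild-type libraries of day 6. The 8 endothelial markers summed to 39.1 to 56.3 scaled RPKM in mutant and 27.9 to 40.9 in wild-type libraries of day 6. Tek, a receptor of endothelium, rose in the mutant on day 6, with 3.34, 5.52 and 2.74 scaled RPKM against 0.0713, 0.195 and 1.76 in wild-type libraries (2.13 ± 0.30 SE, limma adjusted p = 8.85e-06), and the wild-type library with embryonic globin was again the highest of its group. Pecam1 of this list rose too, but Cdh5 fell on that day (-1.01 ± 0.32 SE, limma adjusted p = 0.0205). Tie1 was also called higher, but it passed the filter only with the mutant libraries of day 6, so nothing is read from its call. On day 5 Pecam1 and Etv2 rose and Cdh5 fell (-2.07 ± 0.32 SE, limma adjusted p = 3.88e-05). Kdr, a receptor of vessel and blood precursors, had 1.87 to 3.94 scaled RPKM in mutant and 0.244 to 1.18 in wild-type libraries of day 6. The part of these cells in the globin result was not tested.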

How the data were processed

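The authors deposited RPKM for 30 libraries; per the submitters' processing notes, STAR, DESeq2 and mm10 were used, with versions, annotation, read counting and strand setting not given in the sources used here. Each library's RPKM were divided by a size factor (its median ratio to geometric means of 11618 genes). Genes at 1 or more in at least 3 libraries were kept (14196). Since RPKM are not counts, limma 3.58.1 (R 4.3.3) was run on log2(scaled RPKM + 0.5) of the 30 libraries, with group means as terms and its trend option. This scale understates changes of low genes. A call needs a Benjamini-Hochberg adjusted p under 0.05 over all genes kept and a log2 difference of at least 1, and "rose" or "fell" is used of calls only. The fit was tested on simulated data.

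Read totals came from the RPKM steps of 905 small RNA genes, and reads per gene came out whole within 0.001. Shares carry 95% exact Clopper-Pearson intervals from these reads. Depth was 43.3 to 68.4 M reads. Symbols were found for 52403 Ensembl IDs. Sequences and positions are from RefSeq (GRCm38.p6).

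The members and gene lists were chosen with earlier results of these data known. Named genes are the 7 members, up to 6 called genes per list and comparison by adjusted p, the 8 most like Hbb-bs and Hbb-bh1 (passing over Gm, Rik and unnamed genes) and Myl2, Cox8b, Pou5f1, Kdr and Hand1; other genes below the filter or not called were named after their values were seen. Alternatives were other scalings, pseudocounts of 0.1 and 1, no filter, the 6 compared libraries alone, the replicate number as a block, leaving out each replicate and, added later, leaving out the 5 adult beta globin libraries. 1 gene of the red cell list is not reported here.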

Additional observations from a re-analysis of the deposited data

Results flagged for a closer look

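Some genes differed between the genotypes in opposite directions at different stages, with the 3 mutant values entirely on one side of the 3 wild-type values each time. The difference between stages was not tested. Of all genes, 13.8 to 20.7% separated in this way in a given direction on days 4 to 6, and the share was not counted for ESCs and day 3. Hba-x and Hbb-y were lower in the mutant on day 4 (log2 difference -0.38 and -0.10) and higher on day 5 (1.00 and 0.26). Hba-a1 was lower in mutant ESCs (-0.39) and higher on days 5 and 6 (2.67 and 5.66), and Hba-a2 likewise (-0.30, then 2.79 and 5.92). The ESC and day 4 differences rest on few reads, with at most 9 reads of either adult alpha gene in any ESC library. The ESC differences of Hba-a1 and Hba-a2 were not called (limma adjusted p = 0.825 and 0.875). Mb was lower in the mutant on day 3 (-0.81, not called, limma adjusted p = 0.401) and higher on day 6 (4.25). Tfrc was higher in mutant ESCs and on day 3 (1.48 and 0.93) and lower on days 4, 5 and 6 (-1.71, -2.64 and -2.10). Its day 3 difference was not called (limma adjusted p = 0.142).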

How the results depend on the processing

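The number of genes called was 476 on day 3, 736 on day 4 and 853 on day 5 (mutant against wild type); a pseudocount of 0.1 gave 856, 1264 and 1303, and the 6 compared libraries alone gave 460 on day 4. The smaller fit has fewer samples, and otherwise the cause was not tested. Leaving out 1 replicate gave 1285 to 2552 genes in ESCs (1658 with all, 2552 without mutant replicate 1), 437 to 511 on day 3, 631 to 944 on day 4, 698 to 1173 on day 5, 840 to 1322 on day 6 (1104 with all) and 5609 to 6386 for wild-type day 5 against ESCs (5949 with all). List counts are of a few genes each. The red cell list had 1 call at a pseudocount of 0.1 on day 5 (0 as reported) and 1 at a pseudocount of 1 on day 6 (2 as reported), with 0 to 2 and 2 to 3 when a replicate was left out. The haem list had 1 call on day 4 with the 6 libraries alone (3 as reported), and the regulator list 1 on day 5 without the filter, with the 6 libraries alone and without the 5 adult beta globin libraries (2 as reported), with 1 to 2 and 2 to 3 on days 5 and 6 when a replicate was left out. With the low power noted above, no globin was called in ESCs, on day 3 or in wild-type day 5 against ESCs under any alternative run. Of differences near 0, that of Hba-a2 for wild-type day 5 against ESCs changed sign with scaling to the same sum (-0.0106) and ranged from -0.1254 to 0.1492 without 1 replicate, that of Hba-a1 there from -0.2483 to 0.0034, and that of Hba-a2 on day 3 from -0.5152 to 0.0585. The replicate numbers do not pair the samples (correlations of deviations -0.523 to 0.409), and the fit with the replicate block, called 1665 genes in ESCs, 484, 747, 870 and 1119 on days 3 to 6 and 5954 for wild-type day 5 against ESCs, and changed no call count by over 1.5 times. Lyl1, Cygb and Lmo2 (day 6), Klf2 (day 5) and Steap3 and Tfrc (day 4) lost their calls in the 6 libraries alone, with limma adjusted p of 0.0952, 0.0953, 0.0695, 0.0828, 0.103 and 0.0928. Lmo2 also lost its call at a pseudocount of 0.1 (limma adjusted p = 0.0549) and Klf2 without the filter (0.0597), and at a pseudocount of 1 the log2 differences of Slc25a37, Cygb, Lmo2 and Sptb fell below the size a call needs. The embryonic beta-type share averaged 64.3% in mutant cells of day 5 and 46.4 to 95.1% without 1 replicate, and 6.38 to 12.6% in mutant cells of day 6.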
